A study of Mus musculus with 8 samples.

Results

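Activation of the kinase PERK in mouse liver was measured as the difference between all 4 arrays of AP20187-treated livers and all 4 arrays of untreated livers, whatever their Atf4 genotype. These 8 arrays are all 8 of the series. The groups were untreated Atf4+/+, untreated Atf4-/-, AP20187-treated Atf4+/+ and AP20187-treated Atf4-/-, with 2 Affymetrix MG-U74Av2 arrays each, and the series title calls the untreated animals mock-injected. Every animal, untreated ones included, carried the Ttr::Fv2E-Perk transgene of line #58, described as expressing at a low level, and the animals were siblings on a mixed FvB/n and Swiss Webster background. Fv2E-PERK joins the PERK kinase to a domain that the drug AP20187 dimerizes, and its promoter comes from Ttr, a gene of hepatocytes. With no liver lacking the transgene in the series, effects of the drug itself and of PERK activation cannot be told apart. The dose, the time after the drug and the age are not given in the sources used here. Nothing in the labels ties the replicate arrays of 1 group to different animals, and the p-values below then cover the spread among these arrays alone, which may be technical. In whole liver, fewer cells of a type and less RNA per cell cannot be told apart.

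PERK is a kinase of the endoplasmic reticulum (ER) membrane that senses unfolded proteins and phosphorylates the translation factor eIF2 on its alpha subunit. General protein synthesis then falls, while translation of a few messages rises, among them that of the transcription factor ATF4. ATF4 and the factors induced with it, such as CHOP and ATF3, act on genes of amino acid supply, transfer RNA charging, redox balance and growth control, and this programme is called the integrated stress response. In hepatocytes, which secrete most plasma proteins, the unfolded protein response also touches lipid and glucose metabolism.

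Each deposited value was a linear ratio, for most probe sets to the probe set's own median over the 8 arrays, so that levels are compared between arrays and never between genes. Differences are treated minus untreated on the log2(ratio + 0.1) scale, which understates the change of low values, and are followed by their standard error (SE). A gene passed the test when its limma p, adjusted by Benjamini and Hochberg over 12422 probe sets, was under 0.05. Values of single arrays are given in the order Atf4+/+ replicates 1 and 2, then Atf4-/- replicates 1 and 2; these numbers follow the order of deposit and pair no arrays. The log2 ratios of 2 arrays correlated across probe sets with r = 0.226 to 0.293 among untreated arrays, 0.268 to 0.38 among treated arrays and 0.0974 to 0.4 between the groups. Treated Atf4+/+ replicate 2 stood apart, with a median r of 0.121 to the others. It had the lowest log2 difference between the 5' and 3' probe sets of Actb (-0.54, next -0.17), a measure of RNA quality. For Gapdh that difference was -0.05, the same as in untreated Atf4+/+ replicate 1. Of these 5' to 3' differences only that of Actb set the array apart. The part of this array in the results was not tested beyond leaving it out. The summed level of each of 12 lists of cell type markers overlapped between treated and untreated arrays. Of 97 marker genes 0 passed the limma test and 4 had an unadjusted p under 0.05. Over all genes 6.44% had such a p with higher and 5.78% with lower values. In 2 of the 97, the hepatocyte gene Ttr and the endothelial gene Vwf, all treated arrays lay below all untreated ones, against 4.22% of all genes. The 9 hepatocyte markers measured, of 10 listed, had a summed ratio of 9.07 to 10.33 in untreated and 6.61 to 9.66 in treated arrays.

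AP20187 raised 7 probe sets (0.0564% of 12422) and lowered 1 (0.00805%). The genes that rose were Igfbp1, which encodes an insulin-like growth factor binding protein secreted by the liver, Ifrd1, a transcriptional co-regulator gene, B3galt1, a galactosyltransferase gene of glycan synthesis, Ddit3, which encodes CHOP, Rpl13a, a gene of the large ribosomal subunit, and Eepd1, named for its endonuclease, exonuclease and phosphatase domain. A further probe set that rose has no gene name here. The gene that fell was Rnf220, which encodes a ubiquitin ligase. An unadjusted p under 0.05 was found for 737 probe sets with higher values (5.93%) and 697 with lower values (5.61%). All 4 treated arrays lay above all 4 untreated arrays in 521 probe sets (4.19%) and below them in 469 (3.78%).

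Ddit3 had ratios of 0.09, 0.21, 0.30 and 0.11 in untreated livers and 3.12, 5.95, 1.70 and 2.52 in treated livers. The treated Atf4+/+ arrays were highest, and the treated Atf4-/- arrays still lay far above every untreated array. The difference of Ddit3 was 3.55 ± 0.39 (SE, 4 against 4 arrays, limma adjusted p = 0.0275), or 11.7-fold on this scale. Ifrd1 had ratios of 0.27, 0.26, 0.18 and 0.23 untreated and 2.16, 3.48, 1.74 and 2.02 treated. Neither genotype overlapped the untreated range, and the difference of Ifrd1 was 2.83 ± 0.22 (SE, limma adjusted p = 0.00593), or 7.12-fold. Igfbp1 had ratios of 0.33, 0.43, 0.30 and 0.39 untreated and 1.83, 1.89, 1.57 and 2.12 treated. Its treated values spanned a narrow range in which the genotypes mixed. The difference of Igfbp1 was 2.08 ± 0.16 (SE, 95% interval 1.72 to 2.44, limma adjusted p = 0.00593), or 4.23-fold, while the other probe set of Igfbp1 stood at -0.26 and did not pass.

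B3galt1 had ratios of 0.26, 0.32, 0.16 and 0.18 untreated and 4.32, 3.67, 1.83 and 1.68 treated. Both treated groups lay above all untreated arrays, the Atf4+/+ pair higher than the Atf4-/- pair. The difference of B3galt1 was 3.09 ± 0.33 (SE, limma adjusted p = 0.0275), or 8.49-fold, and between the treated genotypes it was -1.14 ± 0.21 (Atf4-/- minus Atf4+/+, limma adjusted p = 0.481). Eepd1 had ratios of 0.37, 0.34, 0.42 and 0.53 untreated and 1.74, 2.76, 1.68 and 1.47 treated. Treated Atf4+/+ replicate 2 was the highest, and Eepd1 rose by 1.94 ± 0.22 (SE, limma adjusted p = 0.0278), or 3.84-fold. Rpl13a had ratios of 0.52, 0.62, 0.57 and 0.44 untreated and 1.52, 1.38, 1.51 and 1.39 treated. Its arrays spread little within either group, and Rpl13a rose by 1.29 ± 0.14 (SE, limma adjusted p = 0.0275), or 2.44-fold. The unnamed probe set had ratios of 0.25, 0.36, 0.35 and 0.16 untreated and 2.73, 3.06, 1.65 and 2.16 treated, all treated values above all untreated ones.

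Rnf220 had ratios of 1.70, 1.35, 1.76 and 1.40 untreated and 0.55, 0.61, 0.50 and 0.65 treated. Every treated array lay below every untreated array, with both genotypes alike in level. The difference of Rnf220 was -1.28 ± 0.15 (SE, limma adjusted p = 0.0358), and its other probe set stood at 0.10, so that the 2 probe sets of this gene disagree. The next smallest p-values among lower values did not pass (limma adjusted p = 0.156 each). They belonged to the glutaredoxin gene Glrx (-0.86 ± 0.15), the nuclear receptor gene Hnf4g (-1.32 ± 0.24), Gcap8 (-1.20 ± 0.22) and the glutamate transporter gene Slc1a6 (-1.37 ± 0.25). In all 4 of them the treated arrays lay below the untreated ones.

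**Figure D1:**
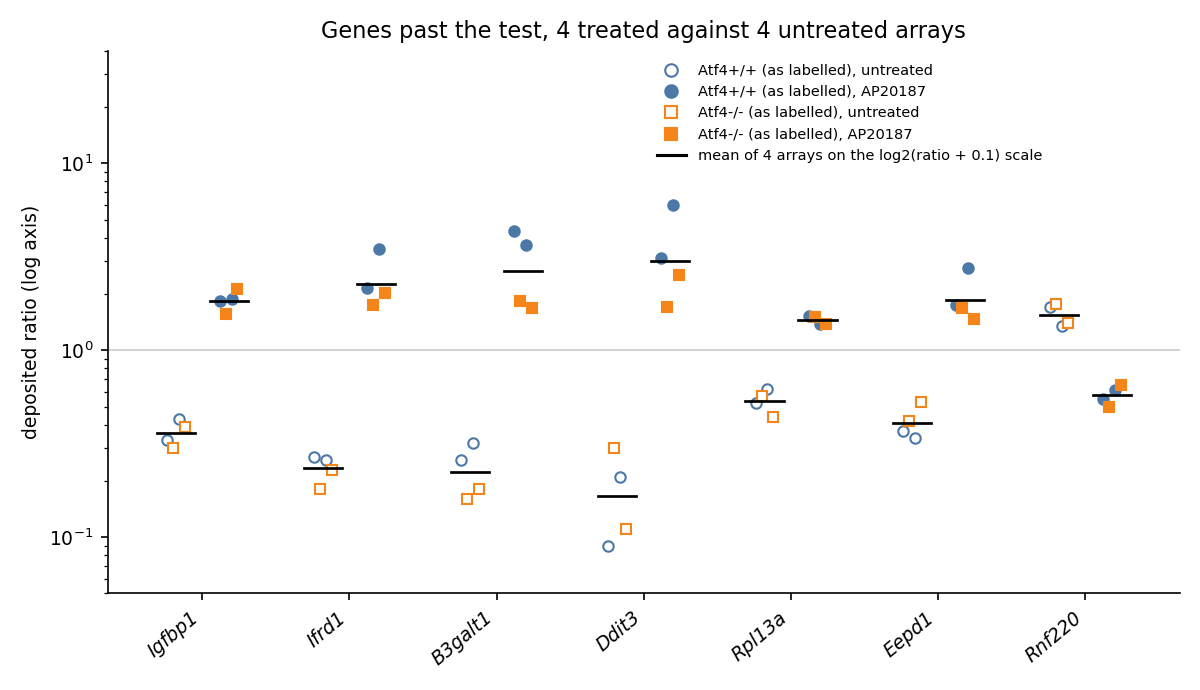
Deposited ratio (log axis) of the 7 named genes past the limma test in each of 8 arrays, open for untreated and filled for AP20187-treated livers, circles for Atf4+/+ and squares for Atf4-/- as labelled; bars are means of 4 arrays on the log2(ratio + 0.1) scale. The treated values of the 6 genes that rose run from 1.38 (Rpl13a) to 5.95 (Ddit3), each above all untreated values of its gene, and those of Rnf220 lie below its untreated values.

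Igfbp1 and Ifrd1 stayed past the test without any 1 of the 8 arrays (limma adjusted p 0.0169 to 0.0447 and 0.00797 to 0.0447). The call of the unnamed probe set held without each of 5 arrays, that of Ddit3 without treated Atf4+/+ replicate 2 or treated Atf4-/- replicate 1 (0.0384 to 0.155 over the 8). The call of Eepd1 held without treated Atf4+/+ replicate 2 (0.044 to 0.155) and that of B3galt1 without treated Atf4-/- replicate 2 (0.0396 to 0.137). Leaving out any 1 array ended the calls of Rpl13a (0.0709 to 0.155) and Rnf220 (0.0709 to 0.177). With genotype as labelled as a covariate Ddit3, Rpl13a, Eepd1 and Rnf220 did not pass, and averaged over their probe sets Igfbp1 (0.91, limma adjusted p = 0.347) and Rnf220 (-0.59, limma adjusted p = 0.238) did not.

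Atf4, the gene the animals were bred to differ in, did not separate the treatment groups. Its ratios were 2.36, 0.30, 0.29 and 1.67 untreated and 4.17, 5.75, 0.25 and 0.33 treated. The treated arrays followed their labels, whereas untreated Atf4+/+ replicate 2 was low and untreated Atf4-/- replicate 2 was high. In untreated Atf4-/- replicate 1 the source name and the description give different genotypes. The pooled difference of Atf4 was 0.62 ± 1.09 (SE, limma adjusted p = 0.853), and -0.07 without treated Atf4+/+ replicate 2. Eif2ak3, the gene of PERK itself, had ratios of 0.85, 1.09, 1.45 and 0.61 untreated and 0.99, 1.37, 0.98 and 1.01 treated. The treated range lay inside the untreated one, with a difference of 0.16 ± 0.25 (SE, limma adjusted p = 0.838). Ttr, whose promoter drives the transgene, had ratios of 1.15, 1.02, 1.43 and 1.25 untreated and 0.83, 0.47, 0.98 and 0.93 treated. All treated arrays lay below all untreated ones, treated Atf4+/+ replicate 2 lowest, and the difference of -0.57 ± 0.23 did not pass (SE, limma adjusted p = 0.397).

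Among 19 measured stress regulators, the transcription factors, kinases and feedback proteins of the integrated stress response and its neighbours, Ddit3 rose and 18 genes did not pass the test (0.0727% of 8251 genes rose). The treated arrays lay wholly above the untreated ones in 11 of 19 (57.9%, against 4.79% of all genes) and wholly below in 1 (against 4.22%). An unadjusted p under 0.05 was found for 12 with higher values (6.44% of all genes) and 1 with lower values (5.78%). The median difference was 0.87, against -0.04 over all genes. It was 1.02 in treated Atf4+/+ and 0.84 in treated Atf4-/- livers against the same 4 untreated arrays.

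Atf3, a transcription factor gene induced by ATF4, had ratios of 0.28, 0.15, 0.14 and 0.19 untreated and 7.37, 16.59, 1.72 and 2.82 treated. Both treated genotypes cleared the untreated range, the Atf4+/+ arrays by more. The difference of Atf3 was 4.15 ± 0.63 (SE, limma adjusted p = 0.112), with other probe sets at 3.68 and -0.27. Trib3, a pseudokinase gene downstream of CHOP, had ratios of 0.06, 0.09, 0.03 and 0.27 untreated and 3.78, 12.75, 1.80 and 1.73 treated. These groups did not overlap either, and the difference of 4.21 ± 0.63 was the largest of the list (SE, limma adjusted p = 0.112). Both genes carried a wide spread in treated livers that followed genotype. With 3 group means (all untreated arrays, treated Atf4+/+, treated Atf4-/-), a fit chosen after seeing the data that takes the genotype gap of treated arrays out of the spread, Atf3 (limma adjusted p = 0.00768) and Trib3 (0.0287) passed, as did 14 probe sets with higher values in all.

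Atf5, a transcription factor gene translated like Atf4, had ratios of 0.47, 0.45, 0.11 and 0.46 untreated and 2.27, 1.72, 2.35 and 1.53 treated. Here the treated genotypes mixed, with a difference of 2.22 ± 0.34 (SE, limma adjusted p = 0.112) and -0.06 ± 0.48 between treated Atf4-/- and Atf4+/+. Ddit4, which encodes an inhibitor of mTORC1 signalling, had ratios of 0.43, 0.31, 0.42 and 0.65 untreated and 5.49, 1.35, 2.11 and 2.71 treated. The highest and the lowest treated array were both Atf4+/+, and the difference was 2.30 ± 0.39 (SE, limma adjusted p = 0.145). Gadd45a, a gene of growth arrest and DNA damage, had ratios of 0.55, 0.09, 0.14 and 0.36 untreated and 3.56, 3.01, 1.68 and 1.45 treated. Its groups were apart, the Atf4+/+ arrays above the Atf4-/- ones, with a difference of 2.79 ± 0.45 (SE, limma adjusted p = 0.117).

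Xbp1, the transcription factor gene of the IRE1 branch of the unfolded protein response, had ratios of 0.79, 0.68, 0.74 and 0.54 untreated and 1.42, 1.66, 1.49 and 1.22 treated. The shift was small and even across genotypes, at 0.98 ± 0.16 (SE, limma adjusted p = 0.133). Atf6, the sensor gene of the third branch, stood at 0.80 ± 0.26, and its groups did not overlap. The bZIP factor genes Cebpg (1.19 ± 0.27) and Cebpb (0.87 ± 0.25) and the eIF2 phosphatase subunit gene Ppp1r15a (0.68 ± 0.23) also had all treated arrays above all untreated ones. Eif2ak2, which encodes the eIF2 kinase PKR, was the 1 stress regulator with all treated arrays below, at -0.55 ± 0.16. The other eIF2 kinase genes Eif2ak4 (-0.46 ± 0.30) and Eif2ak1 (-0.03 ± 0.18) overlapped between groups. So did the ER degradation gene Herpud1 (0.56 ± 0.32), Nfe2l2 (0.07 ± 0.16) and the lipoprotein receptor gene Vldlr (-0.01 ± 0.22, other probe set 0.25).

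Nupr1, which encodes a small chromatin protein of stressed cells, had ratios of 0.15, 0.15, 0.45 and 1.55 untreated and 18.55, 38.4, 2.54 and 0.43 treated. Treated Atf4-/- replicate 2 lay inside the untreated range, while both treated Atf4+/+ arrays lay far above it. The pooled difference was 3.53 ± 1.31 (SE, limma adjusted p = 0.374), and that between treated Atf4-/- and Atf4+/+ was -4.50 ± 0.86 (limma adjusted p = 0.481).

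**Figure D2:**
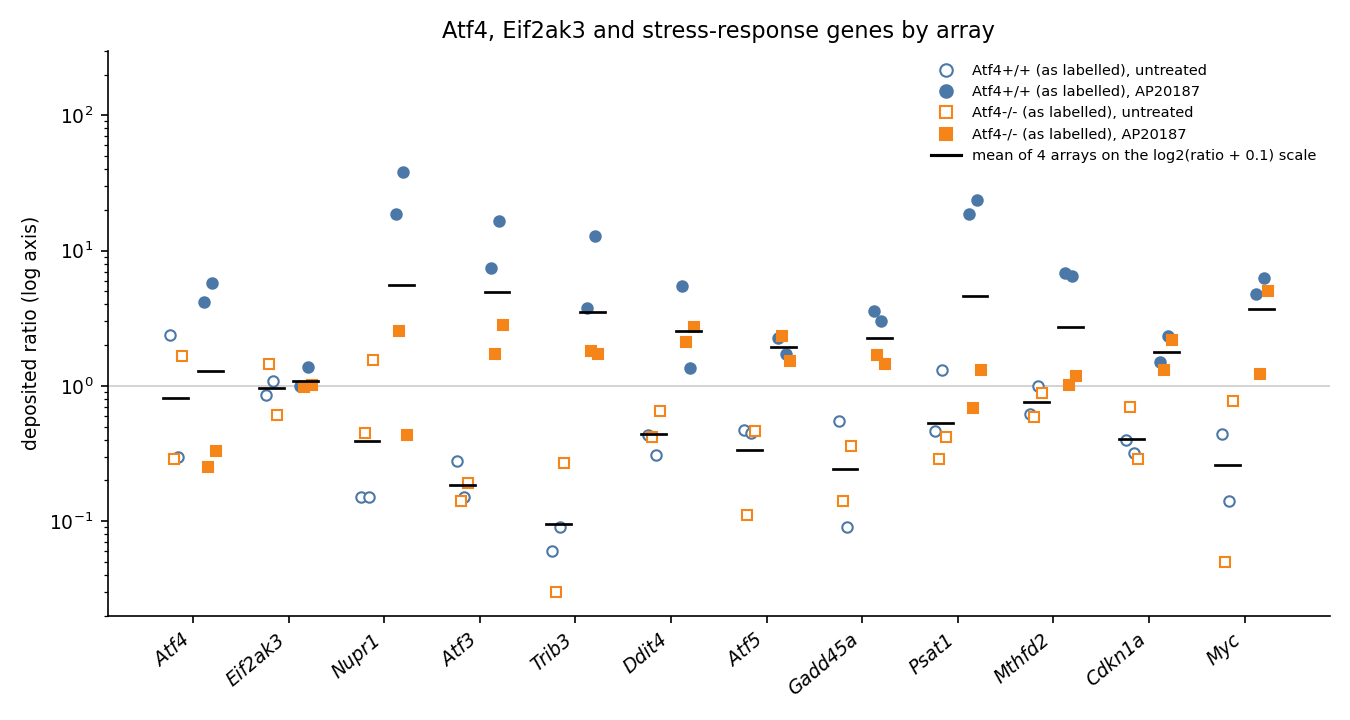
Deposited ratio (log axis) of Atf4, Eif2ak3 and 10 stress-response genes in each of 8 arrays, with symbols for genotype as labelled and treatment and bars for the mean of 4 arrays on the log2(ratio + 0.1) scale. Ddit4, Atf5 and Gadd45a have both treated genotypes above every untreated array, whereas Psat1 and Nupr1 reach 18.55 or more in the treated Atf4+/+ arrays, and lie within the untreated range in both treated Atf4-/- arrays for Psat1 and in 1 of them for Nupr1.

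Promoters were searched for the composite C/EBP-ATF element TGATGNAA, which C/EBP and ATF4 dimers bind, on both strands from 250 bases before to 50 after the start (RefSeq, GRCm38.p6). It was found in 197 of 6576 array genes with a window (3%). Of the stress regulators 5 of 18 held it (27.8%), of the transfer RNA synthetases 5 of 12 (41.7%) and of the amino acid and one-carbon synthesis genes 2 of 9 (22.2%). Among genes with all treated arrays above all untreated ones 17 of 373 held it (4.56%), and among those with all treated arrays below 11 of 330 (3.33%). The cyclic AMP response element TGACGTCA was held by 23 of 373 (6.17%) and 8 of 330 (2.42%) of these, against 3.16% of array genes, and the promoters of Ddit3, Ifrd1, Igfbp1 and B3galt1 held neither. A match is a description of letters and not a binding site.

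The stretches around the matches are shown for 4 genes with differences above 0 (Atf3, Nupr1, Aars and Gars), for 2 genes that match with differences not above 0 (Vldlr and Got1), for the cyclic AMP response element of Gas5, and for the ER stress element of Hspa5, a pattern in 0.182% of array genes. They run 5′ to 3′ on the strand of the gene, and the capitals mark the match. They come from chr1:191183420-191183459 (minus strand, Atf3), chr7:126625557-126625596 (minus, Nupr1), chr8:111033714-111033753 (plus, Aars), chr6:55037955-55037994 (plus, Gars), chr19:27216804-27216843 (plus, Vldlr), chr19:43524684-43524723 (minus, Got1), chr1:161035104-161035143 (plus, Gas5) and chr2:34772009-34772059 (plus, Hspa5).
Atf3: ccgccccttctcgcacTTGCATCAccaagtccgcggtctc
Nupr1: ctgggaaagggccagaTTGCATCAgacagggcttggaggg
Aars: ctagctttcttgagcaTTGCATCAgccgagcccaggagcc
Gars: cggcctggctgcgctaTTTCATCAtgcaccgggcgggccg
Vldlr: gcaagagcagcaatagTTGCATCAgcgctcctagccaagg
Got1: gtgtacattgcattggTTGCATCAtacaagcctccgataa
Gas5: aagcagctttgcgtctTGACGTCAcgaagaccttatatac
Hspa5: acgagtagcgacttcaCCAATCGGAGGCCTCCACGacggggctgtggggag
The match lies 110 to 103 bases before the start in both Atf3 and Nupr1, and 112 to 105 before it in Aars. Vldlr and Got1 hold the same 8 letters as Atf3, and their differences were -0.01 ± 0.22 and -1.12 ± 0.42.

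Transfer RNA synthetases charge transfer RNA with amino acids. Of 19 measured, 18 had differences above 0, with a median of 0.52. Of these 0 passed the limma test and 6 had an unadjusted p under 0.05 with higher values (against 6.44% of all genes). In 5 (26.3%, against 4.79% of all genes) all treated arrays lay above all untreated ones. The alanine enzyme gene Aars had ratios of 0.83, 0.71, 0.79 and 0.68 untreated and 1.58, 2.05, 1.58 and 1.17 treated. Both genotypes cleared the untreated range, with a difference of 0.97 ± 0.18 (SE, limma adjusted p = 0.17). The serine enzyme gene Sars (1.28 ± 0.27), the glutamate and proline enzyme gene Eprs (0.94 ± 0.22), the phenylalanine subunit gene Farsb (0.68 ± 0.18) and the valine enzyme gene Vars (0.52 ± 0.17) were likewise apart. The glycine enzyme gene Gars had ratios of 1.10, 0.91, 0.90 and 0.82 untreated and 2.27, 2.39, 1.09 and 0.89 treated. Its treated Atf4+/+ arrays were high and its treated Atf4-/- arrays overlapped the untreated ones, with a genotype difference of -1.16 ± 0.22 (SE, limma adjusted p = 0.481). Against the same untreated arrays the list's median was 0.76 in treated Atf4+/+ and 0.13 in treated Atf4-/- livers, and the pooled median of 0.52 became 0.31 without treated Atf4+/+ replicate 2.

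Of 9 genes of amino acid and one-carbon synthesis 0 passed the limma test. An unadjusted p under 0.05 was found for 2 with higher values (against 6.44% of all genes) and for Got1 with lower values (against 5.78%). The 2 became 0 without either treated Atf4+/+ array, untreated Atf4+/+ replicate 1 or untreated Atf4-/- replicate 1, and 1 without untreated Atf4-/- replicate 2. The lower call was lost without either treated Atf4+/+ array, untreated Atf4-/- replicate 2 or treated Atf4-/- replicate 1. The list's median of 0.41 ranged from 0.14 (without untreated Atf4-/- replicate 1) to 0.53 (without either treated Atf4-/- array), and was 0.29 and 0.21 without treated Atf4+/+ replicates 1 and 2. Mthfd2, a mitochondrial folate enzyme gene, had ratios of 0.62, 0.99, 0.59 and 0.88 untreated and 6.79, 6.43, 1.01 and 1.19 treated. All treated arrays lay above the untreated ones, the Atf4-/- pair only just, with a difference of 1.73 ± 0.63 (SE, limma adjusted p = 0.374) and its other probe set at 1.55. The serine synthesis gene Psat1 had ratios of 0.46, 1.31, 0.29 and 0.42 untreated and 18.7, 23.45, 0.69 and 1.31 treated. The treated Atf4-/- arrays lay within the untreated range of Psat1, and the pooled difference was 2.90 ± 1.12 (SE, limma adjusted p = 0.386). Between treated Atf4-/- and Atf4+/+ livers Psat1 differed by -4.32 ± 0.50 and Mthfd2 by -2.49 ± 0.30 (limma adjusted p = 0.232 each). The other probe set of Mthfd2 went the opposite way, at 0.91 ± 0.39 (limma adjusted p = 0.951). Its treated ratios were 1.67, 0.86, 1.88 and 2.92, so that the 2 probe sets disagree on genotype. The asparagine synthetase gene Asns stood at 0.52 ± 0.27, with its other probe set at 0.01, and Phgdh at 0.18 ± 0.21. Mthfd2 passed with 3 group means (limma adjusted p = 0.0347), and its other probe set did not (0.144).

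Amino acid transporters had a median of 0.16 over 13 genes, of which 0 passed the limma test. An unadjusted p under 0.05 was found for 2 with higher values (against 6.44% of all genes) and 1 with lower values (against 5.78%). Medians ran, when 1 array was left out, from 0.03 (without untreated Atf4+/+ replicate 2) to 0.33 (without untreated Atf4-/- replicate 2). The neutral amino acid carrier gene Slc38a2 was the 1 gene of this list whose treated arrays all lay above the untreated ones (0.87 ± 0.22). This share, 7.69%, was near the 4.79% of all genes. The other probe sets of Slc38a2 stood at -0.39, -0.35 and 0.47. The count of 1 became 2 when treated Atf4+/+ replicate 2 was left out and 3 when treated Atf4-/- replicate 2 was. Over all probe sets the count of 521 wholly above also grew without 1 array, to between 639 and 855. Slc1a4 stood at 0.68 ± 0.28, Slc1a5 at -0.46 ± 0.18, the cystine carrier gene Slc7a11 at 0.47 ± 0.61 and its partner gene Slc3a2 at 0.35 ± 0.19.

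Translation factors, which start and elongate protein chains, had differences above 0 in 21 of 25 and below 0 in 4. Of these 25, 0 passed the limma test and 10 had an unadjusted p under 0.05 with higher values (against 6.44% of all genes). In 11 (44%, against 4.79% of all genes) all treated arrays lay above all untreated arrays and in 0 they lay below, with a median difference of 0.25. Eif1a, a gene of start codon scanning, had ratios of 0.62, 0.82, 0.80 and 0.58 untreated and 1.18, 1.90, 1.26 and 1.29 treated. The genotypes mixed among the treated arrays, and the difference of Eif1a was 0.89 ± 0.19 (SE, limma adjusted p = 0.244), with its other probe set at 0.81. Eif5 (0.90 ± 0.24), which acts as the GTPase activator of eIF2, the eIF2 beta subunit gene Eif2s2 (0.63 ± 0.19), the eIF2B subunit gene Eif2b4 (0.68 ± 0.18) and the eIF3 subunit genes Eif3a (0.77 ± 0.25), Eif3c (0.68 ± 0.22) and Eif3d (0.62 ± 0.16) were also apart. The 4 genes below 0 were the elongation factor kinase gene Eef2k (-0.70 ± 0.47), Eef1g (-0.19 ± 0.27), Eif4b (-0.11 ± 0.15) and Eef1a1 (-0.01 ± 0.13), all with groups that overlapped. Ribosomal protein genes had a median of 0.06 over 20 measured. Rpl13a rose, Rpl10a had non-overlapping groups (0.51 ± 0.15, other probe set 0.74), and Rps14 stood at -0.84 ± 0.49.

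Host genes of small nucleolar RNAs, chosen after their values were seen, had pooled differences above 0. They carry guide RNAs for ribosomal RNA in their introns and encode no known protein. All 8 probe sets of 5 such genes had differences above 0, of which 0 passed the limma test. An unadjusted p under 0.05 was found for 4 (against 5.93% of all probe sets with higher values). All treated arrays lay above in 4 (against 4.19% of all probe sets). Gas5 and Snhg6 count more than once among the 8. Snhg1 had ratios of 0.52, 0.62, 0.50 and 0.40 untreated and 2.92, 6.30, 1.38 and 2.40 treated. Its groups were apart, with a difference of 2.27 ± 0.40 (SE, limma adjusted p = 0.154). Snhg5 had ratios of 0.54, 0.30, 0.05 and 0.43 untreated and 3.44, 6.07, 1.46 and 2.02 treated. This too left no overlap, at 2.95 ± 0.55 (SE, limma adjusted p = 0.164). Gas5 stood at 1.24 ± 0.21 in the probe set whose groups were apart and at 0.70 and 0.43 in its other 2, and Snhg6 at 1.06 and 0.53. Snhg11 had ratios of 0.42, 0.59, 0.23 and 2.43 untreated and 1.98, 3.13, 0.55 and 0.50 treated. Its groups overlapped, at 0.78 ± 0.75, and against the same 4 untreated arrays its treated Atf4+/+ arrays stood at 1.81 and its treated Atf4-/- arrays at -0.24.

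ER chaperones and degradation factors changed little as a list, with a median of 0.07 over 22 genes, of which 0 passed the limma test. An unadjusted p under 0.05 was found for 3 with higher values (6.44% of all genes) and 2 with lower values (5.78%). All treated arrays lay above in 2 (9.09%, against 4.79% of all genes) and below in 2 (9.09%, against 4.22%). Hspa5, which encodes the ER chaperone BiP, had ratios of 0.73, 0.71, 0.90 and 0.47 untreated and 1.10, 1.13, 1.22 and 1.10 treated. All treated arrays lay just above the untreated ones, at 0.65 ± 0.19 (SE, limma adjusted p = 0.296). The co-chaperone gene Dnajb9 stood at 0.78 ± 0.20 with non-overlapping groups, and its other probe set at 0.78 with groups that overlapped. The mannosidase-like gene Edem1 (-0.54 ± 0.17) and the disulfide isomerase gene P4hb (-0.42 ± 0.15) had all treated arrays below. The other probe set of P4hb stood at -0.05, with groups that overlapped. Of 15 heat shock genes Hspa9 alone had non-overlapping groups (0.54 ± 0.20). Of 19 antioxidant genes Srxn1, which encodes sulfiredoxin, alone did so (1.5 ± 0.38, other probe set -0.02). These shares, 6.67% and 5.26%, were near the 4.79% of all genes with all treated arrays above. The metallothionein gene Mt2 stood at 1.31 ± 0.46. In autophagy and the lysosome the receptor gene Sqstm1 had ratios of 0.56, 0.69, 0.65 and 0.51 untreated and 1.45, 2.71, 1.41 and 1.31 treated. Treated Atf4+/+ replicate 2 was far the highest, and the difference was 1.32 ± 0.24 (SE, limma adjusted p = 0.156). The protease gene Ctsl stood at 1.01 ± 0.20, whereas Becn1 (-0.30 ± 0.13), Lamp1 (-0.37 ± 0.18) and Ctsb (-0.25 ± 0.14) had all treated arrays below the untreated ones. Of 15 genes in this list 2 lay wholly above (13.3%, against 4.79% of all genes) and 3 wholly below (20%, against 4.22%).

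Growth arrest genes had a median of 0.50 over 12 measured, of which 0 passed the limma test. An unadjusted p under 0.05 was found for 5 with higher values (against 6.44% of all genes). In 4 (33.3%, against 4.79% of all genes) the groups were apart. The cell cycle inhibitor gene Cdkn1a had ratios of 0.40, 0.32, 0.70 and 0.29 untreated and 1.5, 2.35, 1.3 and 2.18 treated. The genotypes mixed among treated arrays, with a difference of 1.89 ± 0.28 (SE, limma adjusted p = 0.112) and its other probe set at 2.06. Gadd45g (1.63 ± 0.31) and the antiproliferative gene Btg2 (0.87 ± 0.31) stood beside Gadd45a. Of 19 immediate early genes, transcribed within minutes of a stimulus, 0 passed the limma test. An unadjusted p under 0.05 was found for 7 with higher values (against 6.44% of all genes). Myc had ratios of 0.44, 0.14, 0.05 and 0.77 untreated and 4.81, 6.30, 1.23 and 5.04 treated. Treated Atf4-/- replicate 1 was the lowest of the treated arrays and still above all untreated ones, with a difference of 3.41 ± 0.66 (SE, limma adjusted p = 0.178). Jun (0.84 ± 0.26), Jund (0.54 ± 0.15), Klf6 (0.81 ± 0.20) and Egr1 (0.86 ± 0.26, other probe set -0.58) were also apart. This made 5 of 19 (26.3%, against 4.79% of all genes). The median of the immediate early list was 0.35 and fell to 0.13 without treated Atf4+/+ replicate 2, to 0.21 without untreated Atf4+/+ replicate 2 and was 0.55 without untreated Atf4+/+ replicate 1.

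Cell division genes (26 measured, median -0.04) and cell death genes (18 measured, median 0.02) had medians near that of all genes. The cyclin gene Ccna2 stood at -0.79 ± 0.27, Cdc6 at -0.40 ± 0.17 and the replication gene Mcm5 at 0.56 ± 0.25, all with overlapping groups. The other probe set of Mcm5 stood at -0.58, opposite in sign. The initiator caspase gene Casp9 had all treated arrays below (-0.37 ± 0.14), and its other probe sets stood at 0.14, -1.19 and -0.45. Among 15 clock genes the repressor gene Nfil3 had ratios of 0.70, 0.33, 0.71 and 0.34 untreated and 1.47, 1.54, 1.29 and 1.41 treated. Its treated arrays were tightly grouped above the untreated ones, at 1.37 ± 0.25 (SE, limma adjusted p = 0.156, other probe set 0.74), and the related factor gene Tef stood at -0.69 ± 0.23.

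Acute phase genes, the liver's response to inflammation, had differences above 0 in 22 of 25 and a median of 0.32. Of these 0 passed the limma test and 7 had an unadjusted p under 0.05 with higher values (against 6.44% of all genes). In 5 (20%, against 4.79% of all genes) the groups were apart. The pentraxin gene Apcs had ratios of 0.29, 0.47, 0.78 and 0.34 untreated and 1.46, 1.71, 1.41 and 1.22 treated. Its treated arrays were alike in both genotypes, at 1.51 ± 0.26 (SE, limma adjusted p = 0.145). The siderophore-binding gene Lcn2 (2.10 ± 0.55, other probe set 0.11), the serum amyloid gene Saa2 (1.62 ± 0.49, other probe set 2.82) and the fibrinogen chain genes Fgb (0.59 ± 0.18) and Fgg (0.42 ± 0.15) were also apart. The count of 5 became 11 without untreated Atf4-/- replicate 1 and 8 without either treated Atf4+/+ array, and the count of 7 became 4 when untreated Atf4-/- replicate 2 was left out, or treated Atf4-/- replicate 1. Over all probe sets the count of 521 wholly above also grew without 1 array, to between 639 and 855. The summed ratio of 11 Kupffer cell and macrophage markers was 9.05 to 15.2 untreated and 10.53 to 11.74 treated, and that of 8 neutrophil markers 8.16 to 11.99 and 6.68 to 10.85. Interferon-induced genes had a median of 0.14 over 23 measured and 0 with groups apart. Of 18 liver transcription factors 0 passed the limma test. Foxa3 (0.66 ± 0.25) and Cebpb had all treated arrays above (11.1%, against 4.79% of all genes). Gata4 (-0.41 ± 0.16) had all treated arrays below (5.56%, against 4.22%).

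Lipid synthesis genes lay lower in treated livers. Of 16 sterol synthesis genes 15 had differences below 0, with a median of -0.68, and of 13 genes of fatty acid and triglyceride synthesis 10 did, with a median of -0.56. In both lists 0 passed the limma test, and 4 and 7 had an unadjusted p under 0.05 with lower values (against 5.78% of all genes). All treated arrays lay below all untreated ones in 4 of 16 (25%) and 2 of 13 (15.4%), against 4.22% of all genes. Dhcr7, the gene of the last step to cholesterol, had ratios of 1.58, 2.75, 1.33 and 1.13 untreated and 0.87, 0.37, 0.66 and 0.79 treated. Untreated Atf4+/+ replicate 2 was the highest and treated Atf4+/+ replicate 2 the lowest, with a difference of -1.19 ± 0.32 (SE, limma adjusted p = 0.28). Nsdhl (-0.75 ± 0.24), Idi1 (-1.16 ± 0.46) and Ebp (-0.44 ± 0.20) were also apart, and Mvd (-1.19 ± 0.37) overlapped. The other probe sets of Nsdhl stood at -0.94 and -1.03, with groups that overlapped. Without untreated Atf4-/- replicate 1 the sterol counts were 8 apart and 7 with such a p. Without that array the count of all probe sets wholly below also grew, from 469 to 714. The sterol median was -0.38 without untreated Atf4+/+ replicate 2 and -0.48 without treated Atf4+/+ replicate 2. Acly, which makes the acetyl-CoA of fatty acid synthesis, had ratios of 1.23, 1.35, 1.11 and 1.20 untreated and 0.89, 0.61, 0.65 and 0.66 treated. Both genotypes lay below the untreated arrays, at -0.73 ± 0.16 (SE, limma adjusted p = 0.228). The lipogenic regulator gene Thrsp stood at -1.37 ± 0.31 with groups apart. The fatty acid synthase gene Fasn (-1.31 ± 0.38), the desaturase gene Scd2 (-0.54 ± 0.19, other probe set -0.28) and Srebf1 (-0.70 ± 0.27) had groups that overlapped. The 7 fatty acid synthesis genes with such a p became 4 without untreated Atf4+/+ replicate 1, untreated Atf4-/- replicate 2 or treated Atf4+/+ replicate 2, and 3 without treated Atf4-/- replicate 1. The 2 that were apart became 4 without untreated Atf4+/+ replicate 2, 6 without untreated Atf4-/- replicate 1 and 7 without treated Atf4+/+ replicate 1. Over all probe sets the count of 469 wholly below became 857, 714 and 753 without the same arrays.

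**Figure D3:**
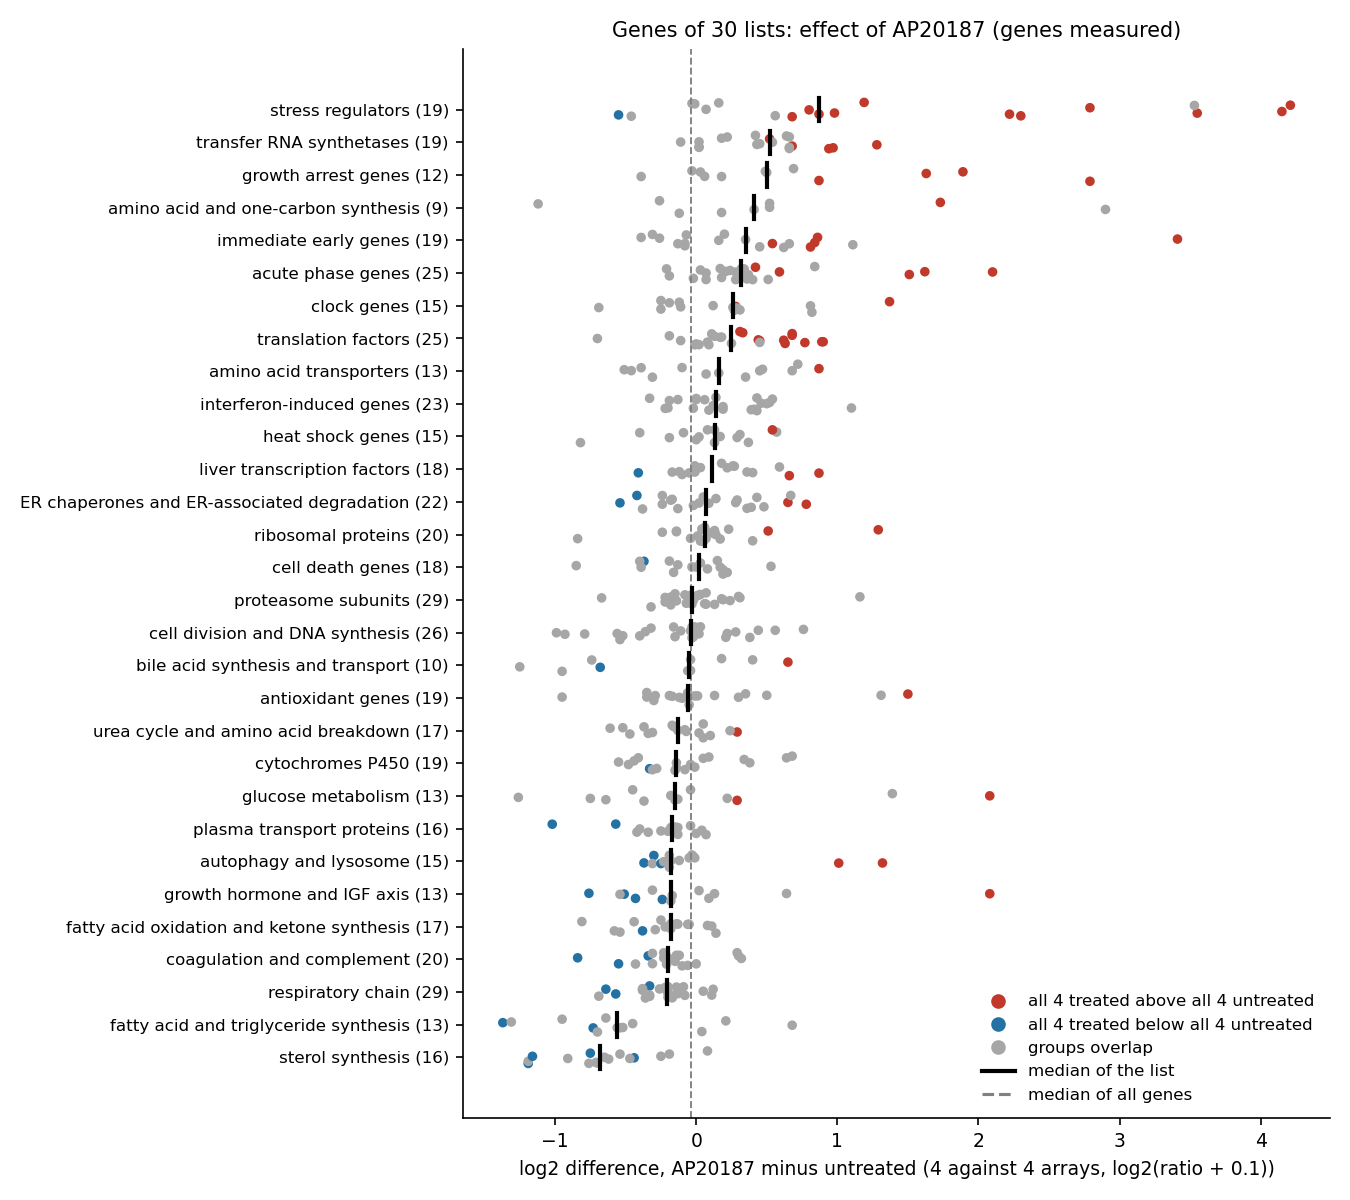
Difference between 4 treated and 4 untreated arrays on the log2(ratio + 0.1) scale for each measured gene (1 point a gene) of 30 gene lists, ordered by the list's median (black bar), with the number of genes measured beside each name and the median of all genes dashed. Stress regulators have the highest median (0.87) and sterol synthesis the lowest (-0.68), and coloured points are genes whose groups did not overlap.

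Other metabolic lists shifted less. Fatty acid oxidation and ketone synthesis had a median of -0.18 over 17 genes, of which 0 passed the limma test and 0 had an unadjusted p under 0.05. In glucose metabolism Igfbp1 rose, the transaminase gene Tat had groups apart (0.29 ± 0.13), and the insulin receptor substrate gene Irs2 stood at -1.26 ± 0.33 with overlap. The gluconeogenic genes Pck1 (-0.15 ± 0.26) and G6pc (-0.18 ± 0.35) overlapped. In bile acid synthesis and transport the sterol hydroxylase gene Cyp8b1 stood at -1.25 ± 0.35 with overlap, the uptake carrier gene Slc10a1 at -0.68 ± 0.24 with all treated arrays below (other probe sets 0.22 and -0.48) and the phospholipid exporter gene Abcb4 at 0.65 ± 0.25 with all above. The respiratory chain had 26 of 29 differences below 0 and a median of -0.21, which was -0.11 without treated Atf4+/+ replicate 2. Of its 29 genes 0 passed the limma test and 2 had an unadjusted p under 0.05 with lower values (against 5.78% of all genes). In 3 (10.3%, against 4.22% of all genes) all treated arrays lay below. These were Cox4i1 (-0.64 ± 0.23), Sdhd (-0.57 ± 0.24) and Ndufb5 (-0.33 ± 0.17). The other probe set of Cox4i1 stood at -0.24, with groups that overlapped. Medians were -0.13 for the urea cycle and amino acid breakdown, -0.14 for cytochromes P450 and -0.03 for proteasome subunits.

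Other lists of secreted plasma proteins than the acute phase genes had medians below 0. Of 16 plasma transport proteins 14 had differences below 0 (median -0.17), and of 20 coagulation and complement genes 16 did (median -0.20, and -0.07 without treated Atf4+/+ replicate 2). In both lists 0 passed the limma test, and 2 and 3 had an unadjusted p under 0.05 (all genes: 5.78% lower, 6.44% higher). These counts ranged from 1 to 3 and 1 to 4 when 1 array was left out. All treated arrays lay below in 2 of 16 (12.5%) and 3 of 20 (15%), against 4.22% of all genes. Apoa2, an apolipoprotein gene, had all treated arrays below (-1.02 ± 0.30, other probe set -0.33), as had Ttr. So had the coagulation genes Klkb1 (-0.84 ± 0.22), F13b (-0.55 ± 0.21) and F7 (-0.34 ± 0.16). The other probe set of F7 stood at -0.41, with groups that overlapped. In the growth hormone and IGF axis, with 13 genes measured, Igfbp1 rose and 0 genes passed the limma test with lower values. An unadjusted p under 0.05 was found for 2 with lower values (against 5.78% of all genes). All treated arrays lay below in 4 genes (30.8%, against 4.22% of all genes). These were the signal transducer gene Stat5b, the receptor gene Ghr (-0.43 ± 0.16, other probe set -0.44), Igfals (-0.51 ± 0.23) and Igf1 (-0.24 ± 0.14). The other probe set of Igfals stood at -0.28, with groups that overlapped. Stat5b had ratios of 1.26, 1.69, 1.04 and 1.31 untreated and 0.96, 0.66, 0.59 and 0.75 treated. The treated arrays of both genotypes lay below the untreated ones, at -0.76 ± 0.20 (SE, limma adjusted p = 0.269). The summed hepatocyte markers were lowest, at 6.61, in a treated array, and their part in these differences was not tested.

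**Figure D4:**
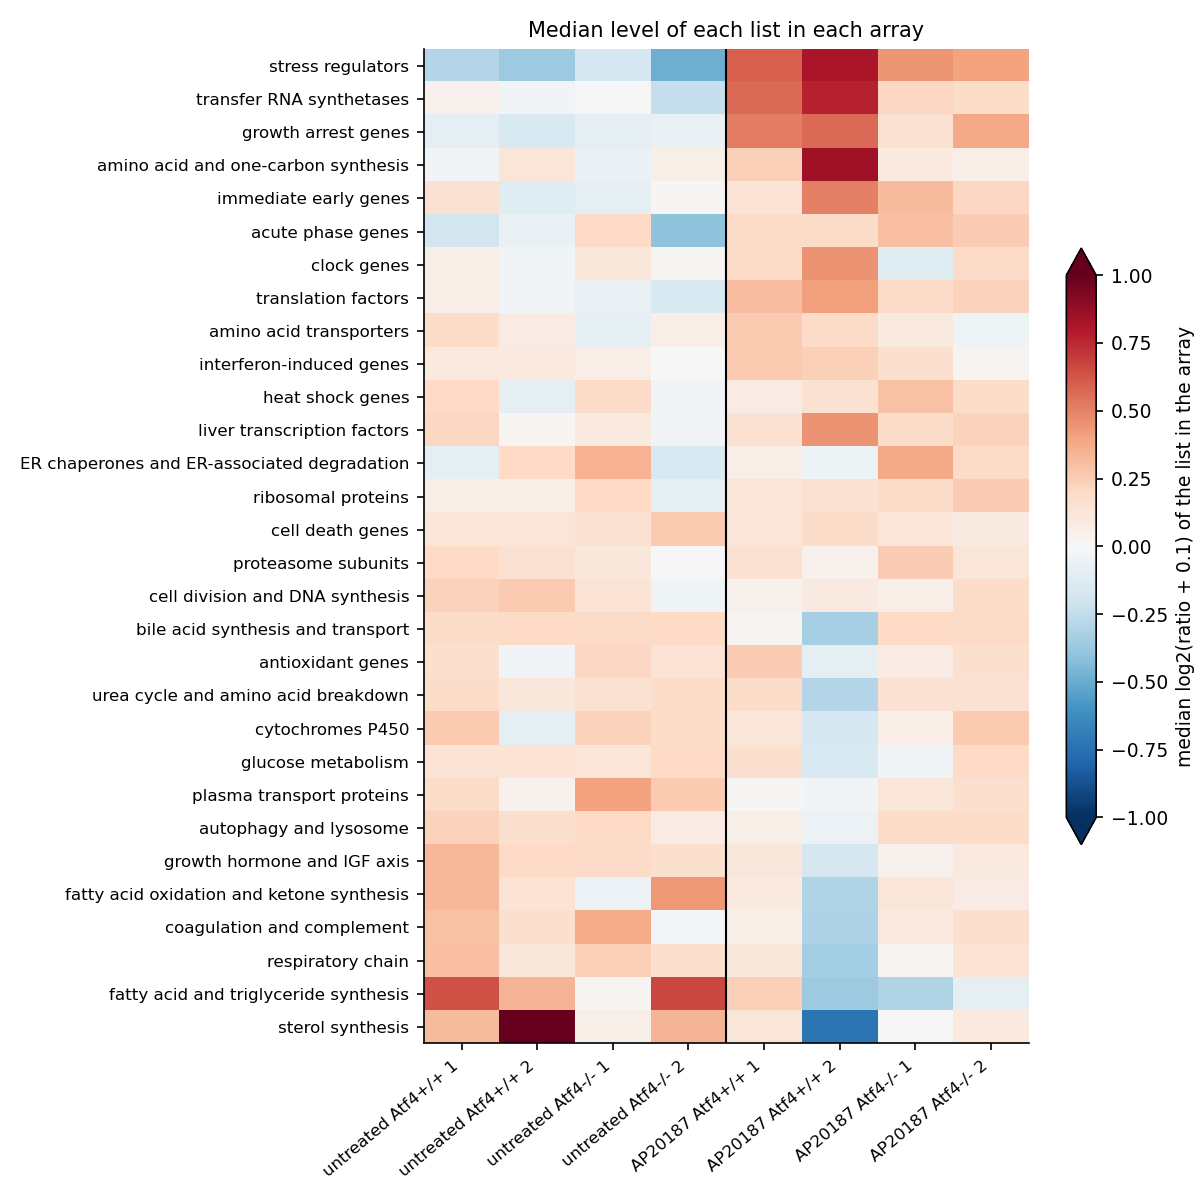
Median log2(ratio + 0.1) of each of 30 gene lists in each of 8 arrays, red above 0 and blue below, with untreated arrays left of the black line. Stress regulators stand at -0.49 to -0.17 in untreated and 0.40 to 0.82 in treated arrays, and treated Atf4+/+ replicate 2 has the lowest sterol synthesis median (-0.73), while that of untreated Atf4+/+ replicate 2 (1.45) lies past the end of the colour scale.

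The treated genotypes were set against each other for the same genes, with Atf4-/- minus Atf4+/+ livers fitted over 2 against 2 arrays. Of 12422 probe sets 0 passed the limma test, also with 3 group means, and 345 with lower (2.78%) and 314 with higher values in Atf4-/- (2.53%) had an unadjusted p under 0.05. Atf4 itself differed by -3.69 ± 0.99 and did not pass either (limma adjusted p = 0.712). The count of 0 therefore does not show that the treated genotypes were alike. Among the genes past the pooled test Ddit3 differed by -1.02 ± 0.48 (limma adjusted p = 0.952) and Rnf220 by -0.02 ± 0.24. Among the stress regulators the values were -2.28 ± 0.46 for Atf3, -1.92 ± 0.67 for Trib3, -0.18 ± 0.24 for Xbp1 and -0.19 ± 0.61 for Ddit4. The cysteine enzyme gene Cars had ratios of 3, 0.52, 0.60 and 1.40 untreated and 5.21, 5.23, 0.56 and 0.58 treated. The 4 arrays in which Cars was highest are those in which Atf4 was highest. Cars differed by -2.99 ± 0.74 between the treated genotypes (limma adjusted p = 0.648), and its pooled difference was 0.66 ± 0.87.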

How the data were processed

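Total RNA from mouse liver was measured on 8 arrays, 1 array a sample. The deposited series table, made by the authors, holds a linear ratio for each probe set and array. In 10714 of 12488 probe sets (85.8%) the median of the 8 ratios was at least 0.99. The summary, scaling and division of signals are not given in the sources used here. Signal over background is therefore unknown, and precision is limited by having 8 arrays. Groups come from source names and descriptions; where these disagree on genotype for 1 untreated array, the source name was used, and the treatment is the same in both.

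Without 66 control probe sets, 12422 were fitted in limma 3.58.1 (R 4.3.3, statmod 1.5.0) on log2(ratio + 0.1), treated against untreated, with no other term (6 residual and 2.41 prior degrees of freedom). Of these, 10833 have 1 gene in GEO's platform annotation, 396 several and 1193 none. The genotype difference of treated arrays was fitted with 4 group means. A list holds 1 probe set a gene, and other probe sets are given for some of the genes named. Lists were described by counts and medians, without a set test. Over all genes 4.79% had all treated arrays above all untreated ones and 4.22% below. An unadjusted p under 0.05 was found for 6.44% with higher and 5.78% with lower values. The fit was tested on simulated data. Genes were chosen by a rule: Atf4, Eif2ak3, those past the test, and ATF4 or CHOP targets. The rule also took the 5 smallest p-values in a direction with fewer than 5 past the test. From every list it took the 4 members of smallest p. Not all of these genes are described above, among them Psmc4 (1.16 ± 0.43), Pgm2 (1.39 ± 0.48) and Cyp4b1 (-0.33 ± 0.13). Chac1, Sesn2 and Fgf21 were not analysed here. Other genes, among them those singled out because their groups do not overlap, and Herpud1, Nfe2l2, Eef2k, Eef1g, Eif4b, Eef1a1, Gars, Cars, Phgdh, Pck1, G6pc, Srebf1 and the small nucleolar RNA hosts, were chosen after their values were seen. The comparison, its genes and its lists were chosen with earlier results of these data known. Plots were made in matplotlib 3.10.9 (Python 3.11.15, pandas 2.3.3).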

Additional observations from a re-analysis of the deposited data

Results flagged for a closer look

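In groups of 4 arrays, 1 array far from the other 3 was looked for with Dixon's test in 354 groups, the treated and the untreated arrays of each named gene and each list, and 23 were found, where chance gives about 1 in 20. In treated livers Atf4+/+ replicate 2 was the far array for Eif2ak3 (ratio 1.37), Glrx (0.54), Eif3d (1.52), Fabp1 (0.71), Abcb4 (2.32), Sdhd (0.44), F13b (0.48), Igfals (0.49), Sqstm1 (2.71) and Ctsl (1.92). It was also far below the other treated arrays in the median log2 ratio of sterol synthesis (-0.73), of fatty acid oxidation and ketone synthesis (-0.30) and of the urea cycle and amino acid breakdown (-0.29). Treated Atf4-/- replicate 1 was low for Myc (1.23) and treated Atf4-/- replicate 2 for Jund (1.06).

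In untreated livers Atf4+/+ replicate 1 was low for Vldlr (0.58) and high for Egr1 (0.96), and Atf4+/+ replicate 2 was low for Gsta4 (0.71) and Casp9 (1.04). Untreated Atf4-/- replicate 1 was low for Atf5 (0.11) and high for Apoa2 (1.92). Untreated Atf4-/- replicate 2 was low for Ppp1r15a (0.77) and high in the median of glucose metabolism (0.20).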

How the results depend on the processing

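The count of 7 probe sets higher with AP20187 was 11 with quantile normalization, 4 with genotype as labelled as a covariate, 4 without moderation, 14 with 3 group means and 1 without treated Atf4+/+ replicate 2 and untreated Atf4+/+ replicate 1 together; the last pair of settings was chosen after seeing the data. Leaving out 1 array gave 2 to 5. The 1 lower probe set was lost (0) with the genotype covariate, with 4 group means, without moderation, with 3 group means and without those 2 arrays, and leaving out 1 array gave 0 to 1. The count of 521 probe sets with all treated arrays above all untreated ones was 1139 and that of 469 below was 1142 without those 2 arrays, and 639 to 855 and 668 to 857 without 1 array, since fewer arrays separate more often. The genotype difference of treated arrays gave 0 in all fits run. All 8 probe sets stayed past the test with pseudocounts of 0.05 and 0.5, centring, quantile normalization, the filter on row medians, robust moderation and array weights.

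Of 2966 alternative values of 135 named gene results, 2887 kept direction and side of the threshold, 57 lost and 8 gained the call, and 14 changed sign: Atf4 (-0.07 without treated Atf4+/+ replicate 2, up to 1.28 over the 8 arrays left out), Eif2ak3 (-0.03 without untreated Atf4-/- replicate 2 and 0 without the 2 arrays, up to 0.34), Slc7a11 (-0.05 without untreated Atf4-/- replicate 1, up to 0.85), Mcm5 (-0.01 as the mean of its probe sets) and Vldlr (0.01 after centring, quantile normalization or array weights, 0.12 as the mean of its probe sets, and -0.19 to 0.07 without 1 array). The cause was not tested. Of 798 list medians 40 moved by more than the spread between arrays. No paired analysis was possible because the labels number no replicates; the numbers used in the text only follow the order of deposit.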
